A study of Drosophila melanogaster with 9 samples.

Results

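The genes described here are heat shock factor and 9 chaperone and cochaperone genes of Drosophila melanogaster, measured by RNA sequencing in S2R+ cells. They comprise the transcription factor gene Hsf, 3 constitutive chaperone genes (Hsp83, Hsc70-4 and Hsc70Cb) and 6 heat-inducible genes (DnaJ-1, stv, Hsp22, Hsp23, Hsp26 and Hsp27). They were listed by name, with earlier results of these data known, and all 10 were found by FlyBase identifier among the 17559 genes counted in every sample. Of the 10, 9 passed the filter on low counts, a mean CPM (reads scaled to the total of the sample) above 1 over all samples. Hsp22, with no read in any sample, was the exception.

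The study asked how the transcriptome of these cells depends on the RNA-binding protein Hrb98DE, which was depleted with 2 distinct double-stranded RNAs (dsRNAs). S2R+ is an established cell line, labelled here as embryonic and of the Oregon R strain. The groups were cells given the first Hrb98DE dsRNA (KD1, replicates 1, 3 and 4), cells given the second Hrb98DE dsRNA (KD2, replicates 1, 2 and 4) and control cells given a dsRNA against lacZ (lacZ, replicates 1, 2 and 3). All 9 samples shared the same culture at 25 °C, the uptake of dsRNA during 6 h without serum, the repeat of that treatment and the harvest on day 5, so the control cells had undergone the same starvation steps. No heat shock is described for any group.

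Heat shock proteins are molecular chaperones, which keep other proteins folded, hold them in solution or hand them on for degradation. Constitutive chaperones are made in all growing cells, whereas inducible ones are transcribed strongly only when heat or another stress releases heat shock factor, which then binds heat shock elements in their promoters. The division is not absolute, since Hsp83 is also raised by heat, and the small heat shock genes are also switched on during development and by the hormone ecdysone.

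The count tables held 13040608 to 15931035 reads per sample. Hrb98DE mRNA, the target, was left at 12.5% to 16.2% of the lacZ mean in the 6 knockdown samples, and its paralog Hrb87F at 39.9% to 44.7% in KD1 and 19.9% to 25.8% in KD2. Of the 10 hemocyte (blood cell) markers checked, 9 passed the filter, and NimC1, a phagocytosis receptor, did not. Their summed normalised count was 18824 to 19018 in KD1, 19260 to 19791 in KD2 and 18075 to 18181 in lacZ. Of the 9, 4 (Col4a1, Hml, Sr-CI and vkg) were higher past the threshold in both knockdowns. Of all 7406 genes tested, 166 were higher past it in KD1 and 217 in KD2. Pxn was higher without overlap but short of 1.3-fold, at 0.18 in KD1 and 0.29 in KD2 (log2, DESeq2 adjusted p = 0.0200 and 3.49e-05). Not all moved that way. The phagocytosis receptor gene eater had log2 fold changes of −0.31 in KD1 and −0.34 in KD2 without overlap of the groups (DESeq2 adjusted p = 0.103 and 0.0600, edgeR adjusted p = 0.0402 and 0.0222). Groups without overlap were found for 39.5% of all genes in KD1 and 38.1% in KD2. In the same order crq had −0.10 and −0.15 (DESeq2 adjusted p = 0.276 and 0.0554), and srp had −0.03 and 0.12 (adjusted p = 0.778 and 0.149). Marker sums for neurons were 337 to 419 over the 9 samples, those for muscle were 36.7 to 57.2, and bam, the germline marker matched here, had 262 to 302. Most of the neuron sum was elav, at 312 to 394, which shares 3667 exon bases with arg and lncRNA:enrr. Most of the muscle sum was bt, at 31.8 to 49.2. The part that these shifts play in the values below was not tested. In bulk RNA, a change in the number of cells of a kind and a change in RNA per cell cannot be told apart.

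The constitutive chaperones dominated the levels. Read counts divided by the size factor of each sample (normalised read counts) were set per kilobase of annotated exon to compare genes. Hsp83, the cytosolic HSP90, had 27380 ± 1581 per kb in KD1, 27404 ± 2386 per kb in KD2 and 24759 ± 2082 per kb in lacZ (SD, n = 3 each). Hsc70-4, the main cytosolic HSP70 cognate, came next at 17669 ± 1252, 17618 ± 1395 and 14878 ± 1657 per kb in KD1, KD2 and lacZ. Hsc70Cb, an HSP110-type exchange factor for HSP70 proteins, averaged 2139, 2099 and 1796 per kb in the same groups. Together the 10 genes took 0.815% to 1.01% of all counted reads, and Hsp83 with Hsc70-4 made up 90.2% to 91.4% of that.

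The inducible genes lay below them in every sample. DnaJ-1, an HSP40 cochaperone, averaged 1149 per kb in KD1, 1126 in KD2 and 1173 in lacZ. Hsp23 averaged 515, 470 and 485 per kb, Hsp26 435, 408 and 400 per kb and Hsp27 140, 123 and 187 per kb in KD1, KD2 and lacZ. Hsf itself averaged 420 per kb in KD1, 407 in KD2 and 476 in lacZ, within the range of the small heat shock genes. The samples of Hsf and Hsp26 overlapped in KD1 and in KD2, and those of Hsf and Hsp23 overlapped in lacZ, so these neighbours did not differ beyond their spread. All other neighbours in the order were separate. stv, which encodes the BAG-domain cochaperone Starvin, was lowest of the genes with reads at 7.45, 6.63 and 6.49 per kb.

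**Figure D1:**
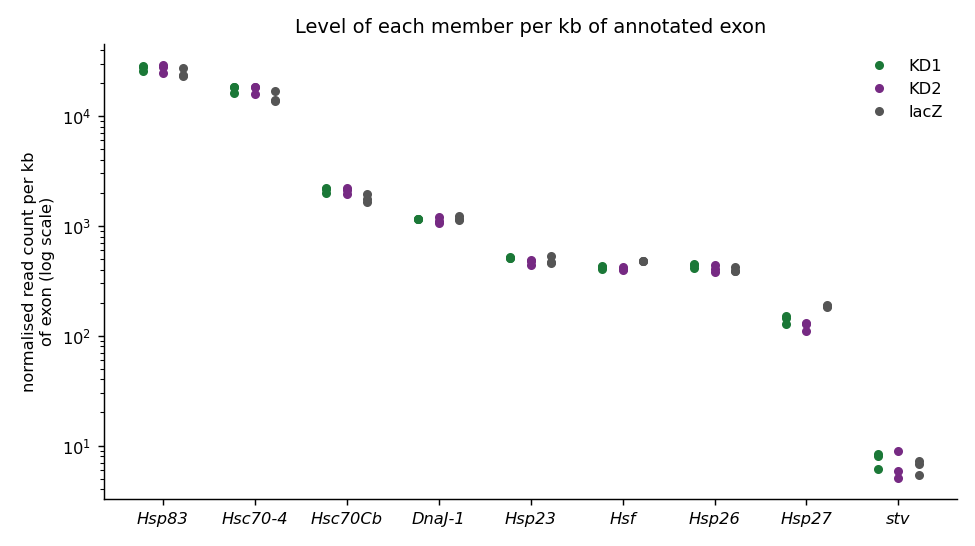
Normalised read count per kb of annotated exon (log scale) for the 9 members with reads, ordered by their lacZ level, with 1 point for each of the 3 samples of KD1, KD2 and lacZ. Hsp83 and Hsc70-4 average 14878 per kb or more in each group, DnaJ-1 averages 1126 to 1173 per kb, and stv 6.49 to 7.45 per kb.

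Hsf was lower in both knockdowns by a small margin. Its gene lies on chromosome arm 2R, from 18130303 to 18134634 on the minus strand (Ensembl release 115 annotation of BDGP6, as for all positions here). Normalised counts were 1175, 1225 and 1267 in KD1, 1220, 1173 and 1158 in KD2, and 1381, 1389 and 1384 in lacZ. Every knockdown sample lay below every lacZ sample. KD1 gave a log2 fold change of −0.18 ± 0.06 (SE, DESeq2 adjusted p = 0.0150) and KD2 one of −0.23 ± 0.06 (adjusted p = 0.00136), a change of −11.8% in KD1 and −14.5% in KD2, short of the 1.3-fold change that the threshold also requires. Leaving out any of KD1 replicates 1 or 3 or lacZ replicates 1 or 3 took the KD1 adjusted p to between 0.0682 and 0.165, while in KD2 it was at most 0.0339 whichever sample was left out.

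The threshold combined an adjusted p under 0.05 with a change of more than 1.3-fold. By both, 1 of 9 members (Hsp27, lower) passed in KD1 and 1 of 9 (Hsp27, lower) in KD2, against 7.37% and 8.13% of the 7406 genes tested in KD1 and KD2. By the adjusted p alone, 4 of 9 members passed in each knockdown, against 21.2% of all genes in KD1 and 23.6% in KD2. They were the same 4. Hsc70-4 and Hsc70Cb were higher, as were 9.71% of all genes in KD1 and 11.3% in KD2, and Hsf and Hsp27 were lower, as were 11.5% and 12.3%. The groups did not overlap for 3 members in KD1 (Hsf, Hsc70Cb and Hsp27) and 2 in KD2 (Hsf and Hsp27), against 39.5% and 38.1% of all genes. Over the 9 members the median log2 fold change came to 0.12 in KD1 and 0.03 in KD2, and that of all genes was 0.00 in both. KD1 and KD2 were set against the same 3 lacZ samples.

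**Figure D2:**
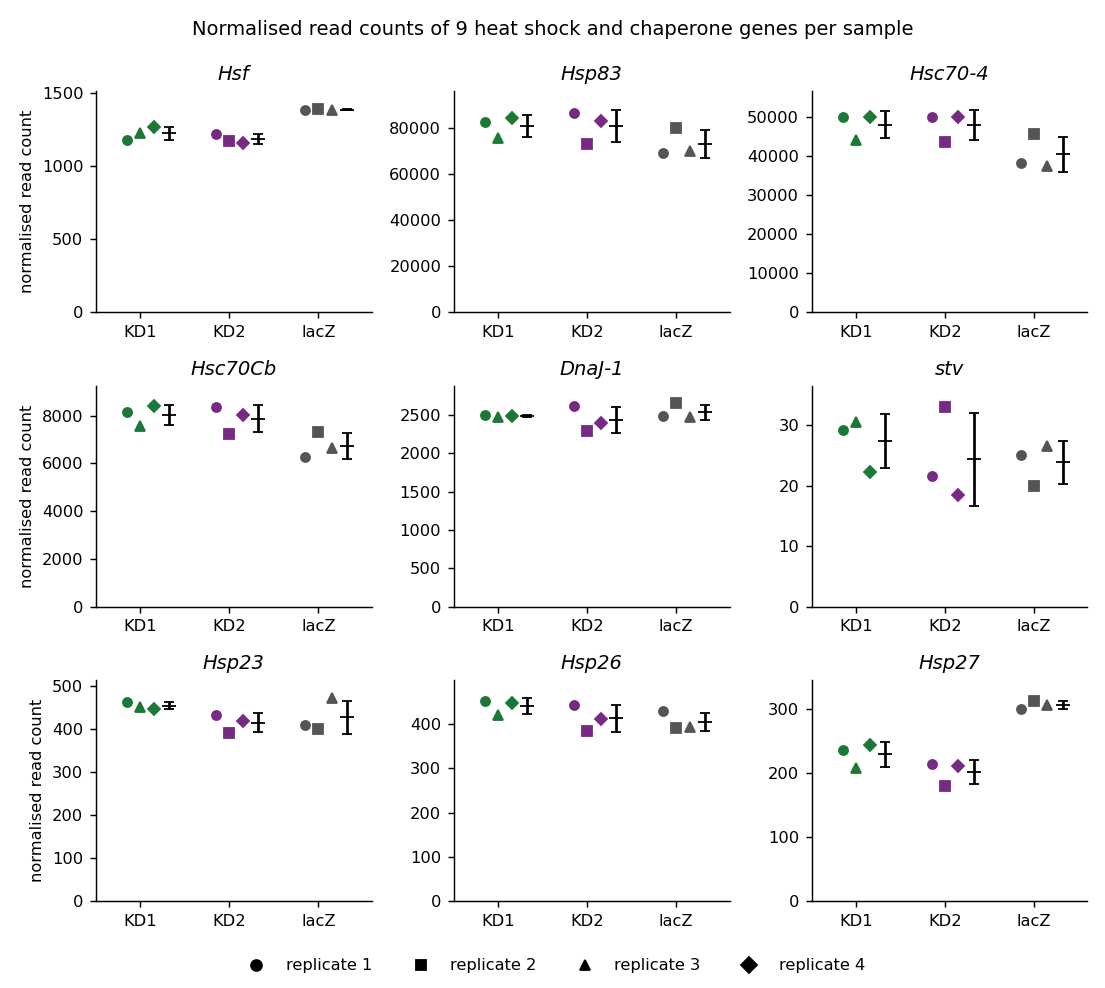
Normalised read counts of the 9 members with reads, 1 panel per gene, with each point a sample (symbol, replicate number) and the bar beside each group its mean and SD (n = 3). Hsf and Hsp27 lie lower in all KD1 and KD2 samples than in any lacZ sample, and lacZ replicate 2 lies above the other lacZ samples for Hsp83, Hsc70-4 and Hsc70Cb.

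The 3 constitutive chaperones had positive fold changes in both knockdowns. Hsc70-4 (3R, 15242687 to 15246614, plus strand) had 49984, 44061 and 49922 normalised counts in KD1, 50020, 43476 and 50055 in KD2, and 38200, 45586 and 37437 in lacZ. KD1 replicate 3 and KD2 replicate 2 were below lacZ replicate 2, so the groups overlapped. KD1 gave a log2 fold change of 0.25 ± 0.08 (SE, DESeq2 adjusted p = 0.0123) and KD2 one of 0.24 ± 0.08 (adjusted p = 0.0128), about 18.8% and 18.4% more, below 1.3-fold.

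Hsc70Cb (3L, 14037019 to 14043686, plus strand) had 8147, 7541 and 8379 normalised counts in KD1, 8376, 7243 and 8003 in KD2, and 6245, 7316 and 6653 in lacZ. All 3 KD1 samples were above the lacZ samples, and KD2 overlapped lacZ through its replicate 2. KD1 gave a log2 fold change of 0.25 ± 0.07 (SE, DESeq2 adjusted p = 0.00304) and KD2 one of 0.22 ± 0.07 (adjusted p = 0.00848).

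Hsp83 (3L, 3192969 to 3197059, plus strand), the most abundant of the genes, had 82746, 75754 and 84637 normalised counts in KD1, 86929, 73257 and 83164 in KD2, and 69198, 80377 and 70289 in lacZ. Again lacZ replicate 2 lay inside the range of the knockdown samples. The log2 fold change of 0.15 ± 0.07 (SE) in each knockdown did not pass (DESeq2 adjusted p = 0.149 in KD1 and 0.139 in KD2). Its 15 exon bases shared with CG14966 on the other strand are few beside its 2960, and CG14966 had 396 to 522 reads.

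The 3 constitutive genes deviated together within each group. On the log2 scale, lacZ replicate 2 was 0.12 to 0.17 above its group mean for the 3 genes, KD2 replicate 2 deviated by −0.15 to −0.12 from its own, and KD1 replicate 3 deviated by −0.12 to −0.09. Of the 7 measured subunits of the CCT chaperonin, which folds actin and tubulin, all 7 were also highest of the lacZ samples in replicate 2, lowest of the KD2 samples in replicate 2 and lowest of the KD1 samples in replicate 3. The pattern was not limited to these genes. In the counts that follow, the 35 other chaperone genes include the noncoding heat shock gene lncRNA:Hsromega. KD2 replicate 2 was the lowest of its group for 7 of the 9 members and 26 of 35 other chaperone genes (74.3%), KD1 replicate 3 the lowest for 6 of 9 and 19 of 35 (54.3%), and lacZ replicate 2 the highest for 6 of 9 and 18 of 35 (51.4%). Over all genes tested, the same libraries were the extreme of their group for 39.5% (lacZ replicate 2, highest), 38.0% (KD2 replicate 2, lowest) and 36.0% (KD1 replicate 3, lowest). They were the opposite extreme about as often, for 39.4% (lacZ replicate 2, lowest), 38.2% (KD2 replicate 2, highest) and 34.6% (KD1 replicate 3, highest). All genes together thus showed no shift in 1 direction. Counting error was 0.328% to 0.543% of the count for Hsp83 and Hsc70-4, while the SD between replicates was 5.77% to 11.1% of the mean.

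The size of the constitutive change depended on lacZ replicate 2. Without it, the log2 fold change came to 0.34 in KD1 and 0.34 in KD2 for Hsc70-4, 0.31 and 0.29 for Hsc70Cb, and 0.22 and 0.22 for Hsp83, whose DESeq2 adjusted p was then 0.00883 in KD1 and 0.00781 in KD2. Without KD2 replicate 2, the KD2 change of Hsp83 was 0.21 (adjusted p = 0.00874). Other omissions made the Hsp83 change smaller, with the KD1 value at 0.11 once lacZ replicate 1 was dropped (adjusted p = 0.444) and the KD2 value at 0.09 once KD2 replicate 1 was dropped (adjusted p = 0.478). Likewise, Hsc70-4 had an adjusted p of up to 0.110 in KD1 and 0.109 in KD2 when lacZ replicate 1 or 3, or replicate 1 or 4 of the knockdown, was left out. Hsc70Cb had one of up to 0.0486 in KD1, and in KD2 one of up to 0.0930 without KD2 replicate 1 or 4 or lacZ replicate 1.

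**Figure D3:**
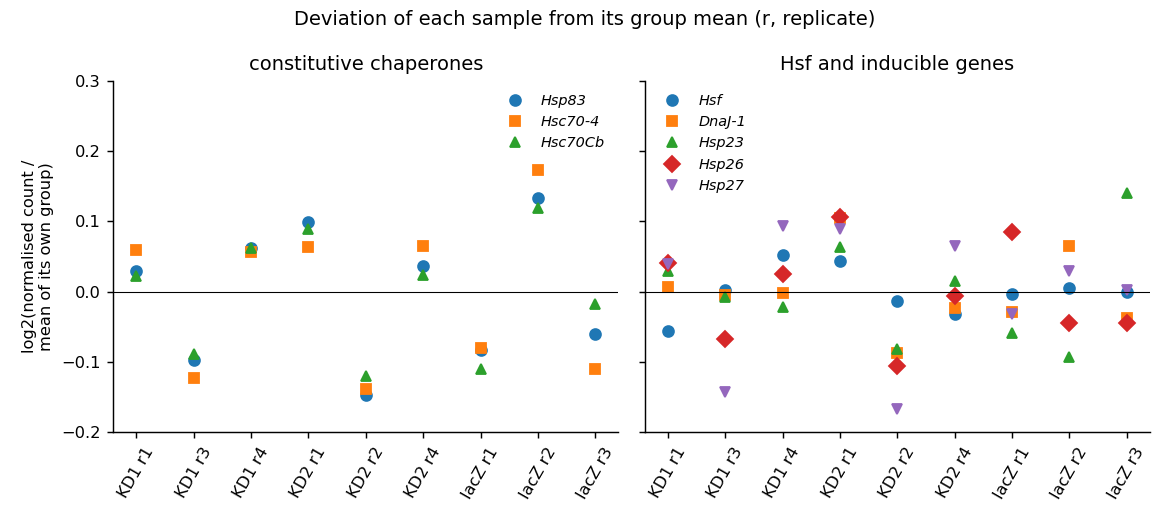
Log2 of each sample's normalised count over the mean of its own group, for the 3 constitutive members (left) and for Hsf and 4 inducible members (right; stv, with at most 32 reads, is left out). The constitutive genes deviate together, at 0.12 to 0.17 in lacZ replicate 2 and −0.15 to −0.12 in KD2 replicate 2. The 5 genes on the right are also below their group mean in KD2 replicate 2, from −0.01 for Hsf to −0.17 for Hsp27, but lie on both sides of it in lacZ replicate 2.

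Relative to Hsp83 in the same sample, a ratio that needs no size factor, Hsc70-4 had 60.4%, 58.2% and 59.0% of the Hsp83 count in KD1, 57.5%, 59.3% and 60.2% in KD2, and 55.2%, 56.7% and 53.3% in lacZ. The knockdown samples were all above the lacZ samples, by at least the step between 57.5% and 56.7%. That step was smaller than the SD within each group, at 1.13 points in KD1, 1.35 in KD2 and 1.73 in lacZ. This ratio uses the same counts as the fold changes above and is not separate support for them. Counts of single genes did not overlap for 39.5% of all genes in KD1 and 38.1% in KD2, and no such share was computed for ratios. Hsc70Cb, by contrast, was at 16.3% to 17.1% of Hsc70-4 in KD1, 16.0% to 16.7% in KD2 and 16.0% to 17.8% in lacZ, with overlapping groups.

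Neither cochaperone gene among the inducible members passed the test. DnaJ-1 (3L, 5750029 to 5752189, minus strand) had 2495, 2475 and 2480 normalised counts in KD1, 2616, 2288 and 2393 in KD2, and 2485, 2650 and 2468 in lacZ. The groups overlapped, with log2 fold changes of −0.03 in KD1 (95% interval −0.15 to 0.09, DESeq2 adjusted p = 0.781) and −0.06 in KD2 (−0.18 to 0.06, adjusted p = 0.530). stv (3L, 13477541 to 13483515, plus strand) had 29.2, 30.6 and 22.3 normalised counts in KD1, 21.5, 33.0 and 18.5 in KD2, and 25.1, 19.8 and 26.5 in lacZ. At 18 to 32 reads per sample its 95% interval ran from −0.45 to 0.87 in KD1 and from −0.63 to 0.70 in KD2, so a change of 1.3-fold in either direction was not detectable at this depth.

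The 4 small heat shock genes belong to the cluster at cytological position 67B. They encode α-crystallin-type proteins that hold unfolded clients without ATP. In the annotation the stretch from the start of Hsp22 (3L, 9372931) to the end of Hsp27 (9385694) spans 12764 bases and touches 9 genes. Hsp26 (9376418 to 9377427) is on the minus strand, and Hsp22 (9372931 to 9374964), Hsp23 (9381882 to 9382765) and Hsp27 (9384063 to 9385694) are on the plus strand. Among the other coding genes of the stretch, Hsp67Ba had 15 to 30 reads, CG4461 2 to 7 and CG4456 at most 1. Nearly all counted reads of this stretch belonged to Hsp23, Hsp26 and Hsp27.

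Hsp22, whose protein is mitochondrial, had 0 reads in each KD1, KD2 and lacZ sample, which allows up to 3 reads per library or 0.188 to 0.230 CPM. All of its 1900 exon bases are also exon of CG4456 (Hsp67Bb) on the same strand. Reads that touch more than 1 gene are left out by the default of the counting program, so this floor covers counted reads only and no fold change is given.

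Hsp23 and Hsp26 did not pass the test in either knockdown. Hsp23 had 464, 453 and 448 normalised counts in KD1, 435, 393 and 420 in KD2, and 411, 402 and 472 in lacZ. Against lacZ its log2 fold change came to 0.09 for KD1 (95% interval −0.09 to 0.27, DESeq2 adjusted p = 0.536) and −0.04 in KD2 (−0.22 to 0.14, adjusted p = 0.818). Hsp26 had 452, 419 and 447 normalised counts in KD1, 443, 382 and 410 in KD2, and 428, 391 and 391 in lacZ. Against lacZ its log2 fold change came to 0.12 for KD1 (−0.06 to 0.30, adjusted p = 0.381) and 0.03 in KD2 (−0.15 to 0.21, adjusted p = 0.870). The groups overlapped for both genes, and all 4 intervals stayed within 1.3-fold.

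Hsp27, whose protein is nuclear in flies, fell in both knockdowns. It had 235, 207 and 244 normalised counts in KD1, 214, 179 and 211 in KD2, and 299, 312 and 306 in lacZ, from 174 to 330 reads per sample. Every knockdown sample lay below every lacZ sample. KD1 gave a log2 fold change of −0.42 ± 0.11 (SE, DESeq2 adjusted p = 0.00222, edgeR adjusted p = 0.00338) and KD2 one of −0.60 ± 0.12 (DESeq2 adjusted p = 3.98e-06, edgeR adjusted p = 0.000226), a change of −25.2% in KD1 and −34.1% in KD2. Lower calls of this kind made up 5.13% of all genes in KD1 and 5.2% in KD2.

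The Hsp27 call was close to the threshold in KD1 and clear of it in KD2. Without KD1 replicate 3, the lowest KD1 sample, the KD1 change was −0.35 (DESeq2 adjusted p = 0.0476), under 1.3-fold. In KD2 the adjusted p was at most 0.000413 whichever sample was left out. Hsp27 shares 49 exon bases on the opposite strand with the pseudogene CR43483, which had 0 reads in all 9 samples.

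Hsp27 was lower relative to its neighbours Hsp23 and Hsp26, which did not pass the test. This ratio uses the same Hsp27 counts as the call above and is not separate support for it. The Hsp27 count was 25.7%, 23.8% and 27.3% of the summed Hsp23 and Hsp26 count in KD1, 24.4%, 23.1% and 25.4% in KD2, and 35.6%, 39.3% and 35.5% in lacZ. The highest knockdown sample, at 27.3%, was below the lowest lacZ sample, at 35.5%.

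**Figure D4:**
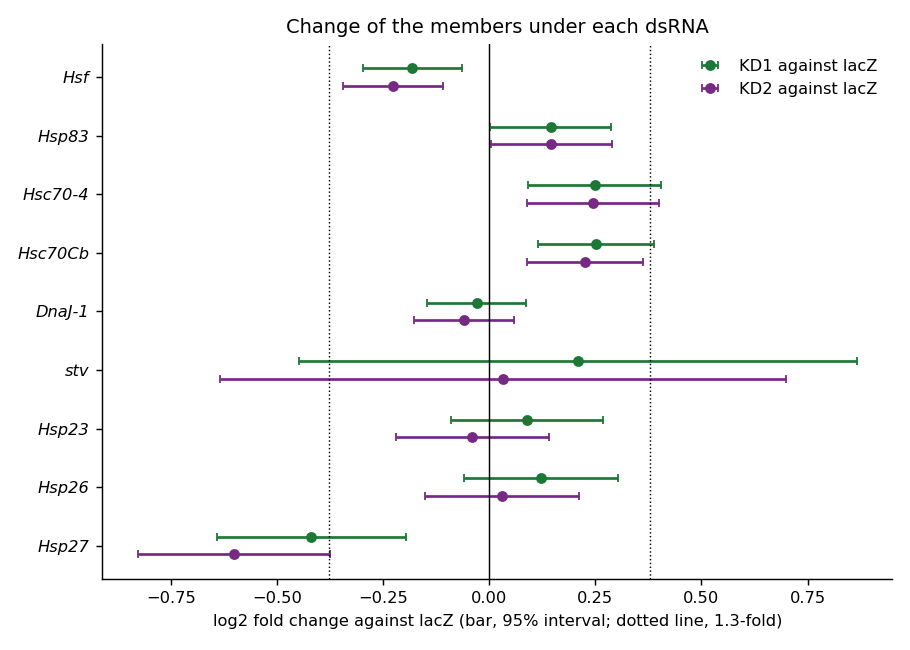
Log2 fold change of the 9 members with reads against lacZ, with 95% intervals, for KD1 (upper mark of each gene) and KD2 (lower mark). The dotted lines are at 1.3-fold, and Hsp27 is the gene whose points lie beyond them, at −0.42 in KD1 and −0.60 in KD2.

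Summed by class, the constitutive level was 47188 ± 2931 per kb in KD1, 47122 ± 3900 in KD2 and 41433 ± 3860 in lacZ (SD, n = 3 each). The inducible level was 2247 ± 36.1 per kb in KD1, 2134 ± 139 in KD2 and 2251 ± 19.0 in lacZ. The inducible sum, in which DnaJ-1 was the largest term, was 4.77% ± 0.24 of the constitutive sum in KD1, 4.53% ± 0.16 in KD2 and 5.46% ± 0.46 in lacZ. By sample it ran from 4.58% to 5.04% in KD1, from 4.36% to 4.69% in KD2 and from 4.94% to 5.75% in lacZ. KD2 lay wholly below lacZ, and KD1 overlapped lacZ through KD1 replicate 3 and lacZ replicate 2. Counts of single genes did not overlap between KD2 and lacZ for 38.1% of all genes. The sums are made of the counts given above, so their ratio is not separate support for a change. No p-value was computed for these sums.

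Set directly against each other, the dsRNAs gave no difference past the threshold for any member. By DESeq2 0 of 9 members passed the threshold between KD1 and KD2, where 0.0135% of all genes did, 0 had an adjusted p under 0.05 (0.162% of all genes), and 0 were under an unadjusted p of 0.05. edgeR gave 0 members with an adjusted p under 0.05. An adjusted p was available for 4 of the 9 members and 2094 of the 7406 genes tested, the others falling under the program's own filter on low means. The shares of 0.0135% and 0.162% are of all genes tested and count those without an adjusted p as not passing. Hsp23 was the member without overlap, higher in all 3 KD1 samples, against 14.1% of all genes without overlap. Its log2 difference was 0.13 (95% interval −0.05 to 0.31), and that of Hsp27 was 0.18 (−0.05 to 0.41, unadjusted p = 0.121), so a difference of 1.3-fold between the dsRNAs was within the interval for Hsp27.

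Other genes of the chaperone system were grouped in lists by protein family, with the noncoding gene lncRNA:Hsromega as a list of its own. Of all these, 44 genes were matched and 35 tested, lncRNA:Hsromega included. Of these, 2 passed the threshold in KD1 and 1 in KD2, all lower, where 7.37% and 8.13% of all genes passed. By the adjusted p alone, 12 passed in KD1 (10 higher) and 9 in KD2 (8 higher), which is 34.3% and 25.7% of the list, against 21.2% and 23.6% of all genes. The KD2 share was near that of all genes. Over the 35 genes the median log2 fold change was 0.10 for KD1 and 0.05 for KD2.

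CG5001, a J-domain protein gene, was lower in both knockdowns, with 41.4, 45.9 and 54.2 normalised counts in KD1, 46.7, 49.5 and 35.9 in KD2, and 72.2, 63.3 and 95.1 in lacZ. On the log2 scale it differed by −0.70 ± 0.23 in KD1 (SE, DESeq2 adjusted p = 0.0160) and −0.80 ± 0.23 in KD2 (adjusted p = 0.00521), though without lacZ replicate 3 the adjusted p was 0.218 in KD1 and 0.117 in KD2. Leaving out KD1 replicate 1 or 3 or lacZ replicate 1 also ended the KD1 call, and leaving out KD2 replicate 4 the KD2 call. CG14207, a small heat shock protein gene outside the cluster, had 57.4, 68.8 and 66.9 normalised counts in KD1, 84.1, 84.5 and 91.4 in KD2, and 108, 88.8 and 75.2 in lacZ. It was lower in KD1 at −0.50 ± 0.19 (adjusted p = 0.0475) but at −0.07 in KD2 (adjusted p = 0.842), and its direct KD1 to KD2 difference of −0.43 (95% interval −0.81 to −0.05) got no adjusted p. The KD1 call was lost when any sample except lacZ replicate 3 was left out.

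The genes with an adjusted p under 0.05 and a higher level, named here after their values were seen, had means of 1953 normalised counts or more in every group. In both knockdowns these genes were CCT2, CCT5, the cysteine string protein gene Csp, the J-domain protein gene Droj2, the HSP70 and HSP90 adaptor gene Hop, the mitochondrial chaperone genes Hsc70-5, Hsp60A and Trap1, and, in KD1 alone by this criterion, CCT1 and CCT6, whose direct KD1 to KD2 differences did not pass (DESeq2 adjusted p = 0.912 and 0.980). With each of the 9 samples left out in turn, Trap1 stayed under 0.05 in KD1, and Trap1, Droj2 and Csp did in KD2. The others went above it in at least 1 fit, mostly without lacZ replicate 1 or 3 or replicate 1 or 4 of the knockdown, with adjusted p values of up to 0.190 in KD1 (CCT6) and 0.3199 in KD2 (Hop). Hop in KD2 stayed under 0.05 in 3 of 9 fits (adjusted p = 0.0480 with all samples, edgeR adjusted p = 0.0563). CCT2 and Hsp60A stayed under it in 5 of 9 in each knockdown, and CCT5 in 7 of 9 in KD1 and 5 of 9 in KD2. Droj2 had the highest fold change among them at 0.28 ± 0.08 in KD1 (SE, DESeq2 adjusted p = 0.00517) and 0.31 ± 0.08 in KD2 (adjusted p = 0.00196), below 1.3-fold. All 7 CCT subunits had positive log2 fold changes in both knockdowns, with medians of 0.15 in KD1 and 0.14 in KD2, and 4 and 2 of them had an adjusted p under 0.05.

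Of the 6 tested genes in the list of inducible HSP70 genes, 0 had a DESeq2 or an edgeR adjusted p under 0.05 in KD1 or in KD2, with medians on the log2 scale of 0.09 in KD1 and −0.03 in KD2. Hsp68 made up most of the counted reads, with means of 1091 ± 40.5 in KD1, 974 ± 126 in KD2 and 1004 ± 67.3 in lacZ (SD, n = 3 each). The other 6 copies (5 of them tested) are near-identical, so their single counts are uncertain. Their sum was 232 ± 5.49 in KD1, 216 ± 56.0 in KD2 and 226 ± 19.3 in lacZ. Reads that match several copies may be missing from this sum too, so its level cannot be set against that of Hsp68. The noncoding heat shock gene lncRNA:Hsromega had log2 fold changes of 0.01 in KD1 (adjusted p = 0.971) and 0.17 in KD2 (adjusted p = 0.0897).

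**Figure D5:**
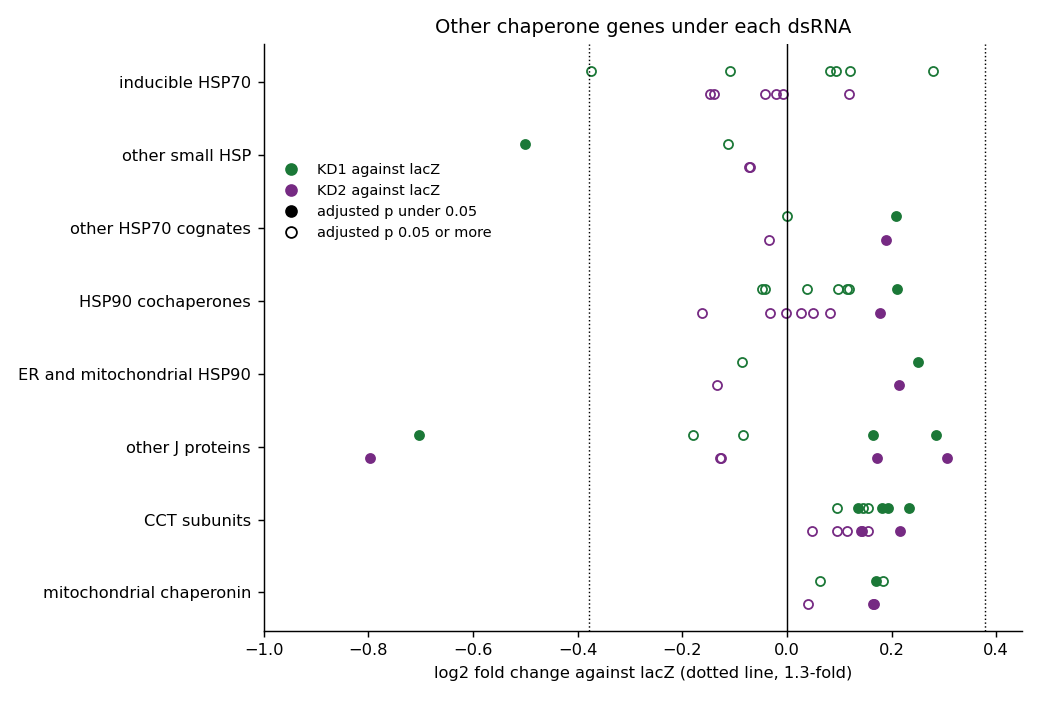
Log2 fold change against lacZ of the other chaperone genes tested, by list, for KD1 (upper points of each list) and KD2 (lower points), with filled points for an adjusted p under 0.05. The noncoding gene lncRNA:Hsromega is not shown. The CCT subunits lie between 0.05 and 0.23, and beyond the dotted lines at 1.3-fold lie CG14207 in KD1 and CG5001 in KD1 and KD2.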

How the data were processed

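RNA of 9 samples (3 each of KD1, KD2 and lacZ, grouped by sample title) was sequenced from polyA-selected, stranded libraries. The study's methods describe biological quadruplicates for each dsRNA but give n = 3 for the mRNA test. The authors aligned paired reads with STAR 2.5.1b to BDGP6 and deposited counts of reads per gene from featureCounts (Subread 1.4.6-p2). The strand setting of the counting is not given in the sources used here. Counts were not normalised by the authors, and each file holds 1 sample.

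From these counts, genes with a mean CPM above 1 were tested with DESeq2 1.42.0 in R 4.3.3 (size factors, Wald test, 3-level group factor, all 9 samples, Benjamini-Hochberg adjustment, independent filtering at 0.1). The study filtered on RPKM, which needs gene lengths that the count files lack. The threshold was an adjusted p under 0.05 and a change above 1.3-fold, and intervals are at 95%. edgeR 4.0.16 was the alternative test, and both were tested on simulated data. Counting floors use 3 reads and cover counting error only.

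Symbols, exon lengths, overlaps and positions came from Ensembl release 115 and RefSeq synonyms, with a symbol for 17253 of 17559 identifiers. Hsc70Cb was matched through its synonym Hsp110. The annotation is newer than the one the authors counted with. The listed genes CCT8, unc-45, wupA, vas and nos were not analysed here. Normalised counts are reads divided by the sample's size factor.

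The members and lists were chosen with earlier results of these data known. Named are all members, Hrb98DE, Hrb87F, lncRNA:Hsromega and, per list, up to 3 genes past the threshold with the smallest adjusted p. Other genes named in the results (the higher chaperone genes short of 1.3-fold, Hsp68 and the hemocyte, neuron and muscle markers) fall outside this rule and were chosen after their values were seen. The alternatives were another test, normalisation, 3 other filters, a prior on fold changes, only the groups compared, a replicate block, a correction for exon length, and leaving out each sample. Promoter motifs were not searched.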

Additional observations from a re-analysis of the deposited data

Results flagged for a closer look

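Among the genes checked here, Hrb87F, the paralog of the targeted gene, responded differently to the dsRNAs. It had 2483, 2457 and 2753 normalised counts in KD1, 1585, 1222 and 1501 in KD2, and 6017, 6322 and 6127 in lacZ. The direct test of KD1 against KD2 gave a log2 difference of 0.835 (DESeq2 adjusted p = 4.09e-22), higher in all 3 KD1 samples. For the members no such difference passed, and their direct log2 differences lay between −0.00 and 0.18.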

How the results depend on the processing

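Across 20 alternative settings the KD2 fall of Hsp27 kept its direction and its call. The number of members past the threshold in KD1 was 0 in place of 1 with a prior on fold changes (Hsp27 at −0.34), with a replicate block (−0.48, DESeq2 adjusted p = 0.0615) and with the block and a correction for exon length (−0.50, adjusted p = 0.0561). It ranged from 0 to 1 with 1 sample left out. The block also took the adjusted p of Hsf to 0.286 in KD1 and 0.134 in KD2, of Hsc70-4 to 0.0982 and 0.277 and of Hsc70Cb to 0.104 and 0.245, and left Hsp27 at 0.00314 in KD2. Same-numbered samples had a mean correlation of −0.0607 over 6 comparisons (−0.341 to 0.159), against 0.0166 over 21 others. These are correlations of deviations from means of 3 samples. They are too few and too spread to tell whether a replicate number marks samples handled together. The filter on RPKM dropped stv.

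For the other chaperone genes in KD1, 1 passed in place of 2 without a filter, with only the groups compared, and without lacZ replicate 2 and KD2 replicate 2, an alternative chosen after seeing the data. There were 0 with the prior, the block, or the block and length correction, and 0 to 1 with 1 sample left out. In KD2 the count was 0 in place of 1 with the block or the block and length correction, 0 to 2 with 1 sample left out, and 2 (CG5001 and Droj2) without both named libraries. Without both, 2 members passed in KD2, as Hsc70-4 was at 0.40. The cause of these shifts was not tested.

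Directions turned where values were near 0. Hsp83 in KD1 against KD2, −0.00129 as reported, was 0.00125 by edgeR and with TMM factors, 0.00186 without a filter, 0.00815 with the length correction, 0.0283 with the replicate block and 0.0361 with both. With 1 sample, or both named libraries, left out, the range crossed 0 in KD1 for DnaJ-1 (−0.0484 to 0.00354) and lncRNA:Hsromega (−0.0216 to 0.0491), and in KD2 for DnaJ-1 (−0.115 to 0.0157), stv (−0.366 to 0.192), Hsp23 (−0.0865 to 0.0333), Hsp26 (−0.0276 to 0.0798) and CG14207 (−0.185 to 0.0758). Between KD1 and KD2 it crossed 0 for Hsp83 (−0.0690 to 0.0518), Hsc70-4 (−0.0598 to 0.0624), Hsc70Cb (−0.0295 to 0.0740), DnaJ-1 (−0.0121 to 0.0859) and CG5001 (−0.0318 to 0.182).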
